A study of Gallus gallus with 9 samples.

Results

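Among the genes measured in chicken liver, 180 dropped steeply between embryonic day 13 and 5 weeks after hatching. At 42 weeks they were near that lower level on the log2 scale used here. They were chosen from the 11512 protein-coding genes with at least 1 FPKM (a read density: fragments counted on a gene, corrected for its length and for the size of the library) in at least 3 of 9 libraries. A member had a mean log2(FPKM + 1) at least 2.5 units lower at 5 weeks than at day 13, and a mean at 42 weeks less than 1 unit from that at 5 weeks. The members are 1.56% of the genes that passed this filter. That number depends on scaling, since the same rule took 80 genes once library medians were made equal and 84 on quantile-normalized values. Both differences were used to choose them, so both are given as descriptions, and no test on them is independent of the choice.

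The libraries came from whole liver of Gallus gallus at 3 ages, with 3 libraries each from embryonic day 13, from 5 weeks (a stage labelled rapid growth) and from 42 weeks (labelled adult and aged). The labels call them biological replicates but do not say that each is a separate bird, so p-values measure the spread between these libraries only. The sources used here state no breed, sex, treatment or batch, and a batch cannot be told apart from age. Only FPKM values were used, so the sequencing depth is unknown.

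The embryonic chick liver is a growing organ that receives nutrients from the yolk through the circulation. After hatching the bird feeds on a starch-rich diet, and the liver becomes the main site of fatty acid synthesis in birds. In mature hens the same organ also makes the precursors of egg yolk under estrogen. Which of these activities the 180 genes belong to was not analysed here, because the files give Ensembl identifiers without names. Of the 13949 identifiers listed, 0 matched the RefSeq table for assembly GRCg7b, and 0 of the members did. Its column for Ensembl identifiers is empty, so this result was fixed in advance and says nothing about the genes. For the same reason 14 gene lists fixed by symbol, markers of hepatocytes and of the other cells of the liver among them, could not be applied, so the labelled tissue was not checked against its markers. No sequence is printed for the same reason.

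The size of the drop is plainest in the level of a typical member in each library. The median FPKM of the 180 genes was 27.6, 23.5 and 23.0 in the day 13 libraries, 1.51, 2.08 and 1.65 at 5 weeks, and 1.14, 1.40 and 2.01 at 42 weeks. Over all 11512 genes the median moved far less, with 7.97 to 8.82 FPKM in the embryonic libraries, 5.39 to 6.33 in the 5-week ones and 4.30 to 6.25 in the 42-week ones. By these medians the members lay above the typical gene in every embryonic library and below it in every library after hatching. The choice of members favours this pattern, so nothing is read from it. In whole tissue, fewer cells of a type and less RNA per cell cannot be told apart.

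**Figure D1:**
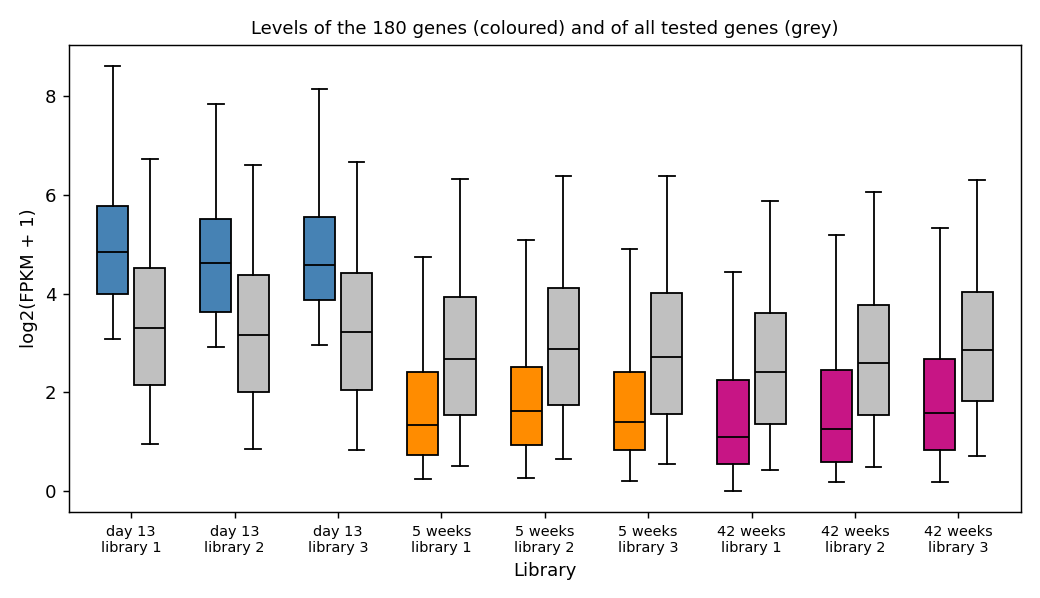
Levels in each of the 9 libraries on the log2(FPKM + 1) scale, with coloured boxes for the 180 members and grey boxes for all 11512 genes. Boxes span the quartiles with the median as a line, and whiskers reach the 5 and 95 percentiles. The coloured boxes sit above the grey ones at day 13 and below them at 5 and 42 weeks, a pattern that the choice of members favours.

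Together the members made up a visible part of the embryonic liver's transcripts and a small part later. They held 2.65%, 2.39% and 2.45% of the summed FPKM of the day 13 libraries. This share was 0.232%, 0.292% and 0.262% at 5 weeks and 0.288%, 0.303% and 0.374% at 42 weeks. The embryonic libraries stood far above all 6 later ones, as the choice of members fixes. A few genes carried much of this signal, and the 3 most abundant held 29.8% of the members' summed mean FPKM at day 13. Without these 3 genes the share of the library lay between 1.59% and 1.94% at day 13, between 0.147% and 0.186% at 5 weeks, and between 0.177% and 0.261% at 42 weeks. Of the 10 members most abundant at day 13, 8 were still among the 10 most abundant members at 5 weeks and 7 at 42 weeks. The choice of members favours such kept ranks, since most drops were near the limit and the later change was capped. The ranks were not tested, and nothing is read from them.

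The member with the highest level at day 13 was ENSGALG00000010969. Its FPKM was 1405, 1654 and 1627 in the day 13 libraries, 222, 284 and 324 at 5 weeks, and 207, 180 and 286 at 42 weeks. Every embryonic library was above every later one, while the 5-week and 42-week libraries overlapped. The mean at day 13 was 1562 ± 137 FPKM, and the means at the later ages were 277 ± 51.4 and 224 ± 55.5 (SD, n = 3 each). The log2 difference between 5 weeks and day 13 was -2.51 ± 0.23 (SE; adjusted p = 8.1e-06, limma), which is just inside the limit of the rule. It fell outside that limit with equal library medians (-2.03), on quantile-normalized values (-2.48), and without day 13 library 2 (-2.46), day 13 library 3 (-2.48) or 5-week library 1 (-2.36). Its lowest library after hatching still held 180 FPKM, and the difference between 42 and 5 weeks was -0.31 ± 0.23 (adjusted p = 0.32, limma).

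ENSGALG00000035677 stood at the median of the members in the size of its drop. It had 43.1, 42.9 and 51.6 FPKM at day 13, 6.29, 5.11 and 4.87 at 5 weeks, and 7.46, 11.4 and 11.2 at 42 weeks. The 3 ages did not overlap in any library, with day 13 highest and 5 weeks lowest. The log2 difference between 5 weeks and day 13 was -2.87 ± 0.19 (SE; adjusted p = 1.1e-06, limma). At 42 weeks this gene was higher than at 5 weeks by 0.76 ± 0.19 (adjusted p = 0.012, limma), which is within the limit that the rule sets. The rule used this difference, so the p-value is not independent of the choice. In this comparison 32.1% of all genes had an adjusted p under 0.05 (limma).

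**Figure D2:**
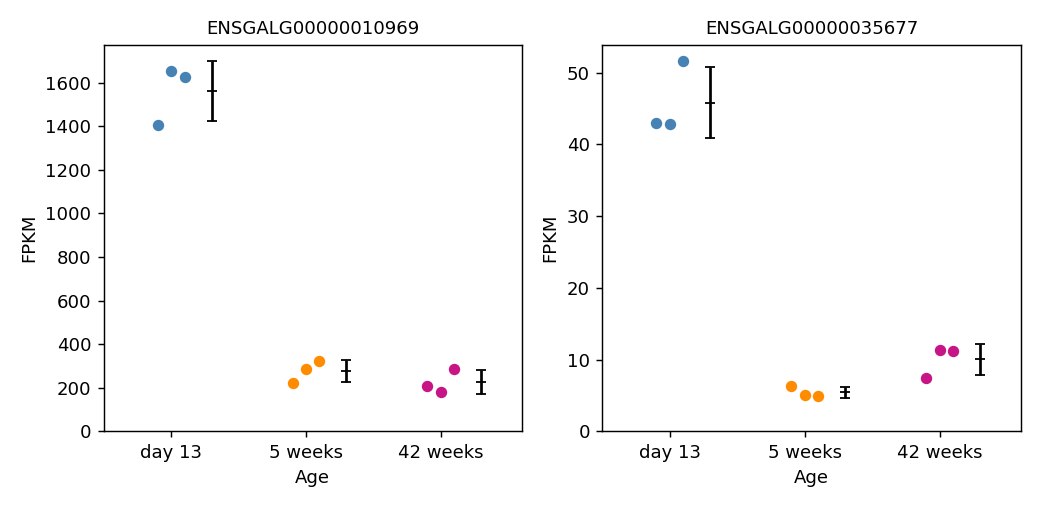
FPKM of ENSGALG00000010969 (left) and ENSGALG00000035677 (right) at each age. Points are the 3 libraries, and the bar beside them gives the mean and SD. Both genes are highest in all 3 day 13 libraries, and only the right one has its 42-week libraries above all those from 5 weeks.

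The drop ranged widely among the members on the log2(FPKM + 1) scale. The difference between 5 weeks and day 13 ran from -7.27 to -2.502, with a median of -2.87 and quartiles of -3.33 and -2.64, beside a median of -0.46 over all 11512 genes. Most members lay near the limit, with 105 of 180 (58.3%) between -3 and -2.5. A further 55 fell in the band from -4 to -3, 15 in that from -5 to -4, and 5 at or below -5. The 5 with the steepest drops had 45.2 to 400 FPKM at day 13, and 4 of them were under 1 FPKM in all 6 later libraries. On the linear scale, the mean FPKM at day 13 was 5.65 to 1734 times that at 5 weeks among the 178 members with a 5-week mean above 0, with a median of 12.0 times. Over all genes with a 5-week mean above 0 this median was 1.47 times.

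The limits cut through a continuous spread of genes. The 3 members just inside the limit on the first interval had log2 differences of -2.502, -2.505 and -2.506, and the 3 genes just outside it had -2.495, -2.492 and -2.491. Within 0.25 units of that limit lay 70 members on the inside and 97 other genes on the outside. For the second interval, the nearest members had differences of 0.94 to 1.00 and of -0.98 to -0.97, and the nearest genes outside had 1.01 to 1.07 and -1.02 to -1.01. Because a gene must have about 4.66 FPKM at day 13 to drop by 2.5 units on this scale, genes with low embryonic levels could not be members, and 7574 of the 11512 genes had a mean high enough.

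**Figure D3:**
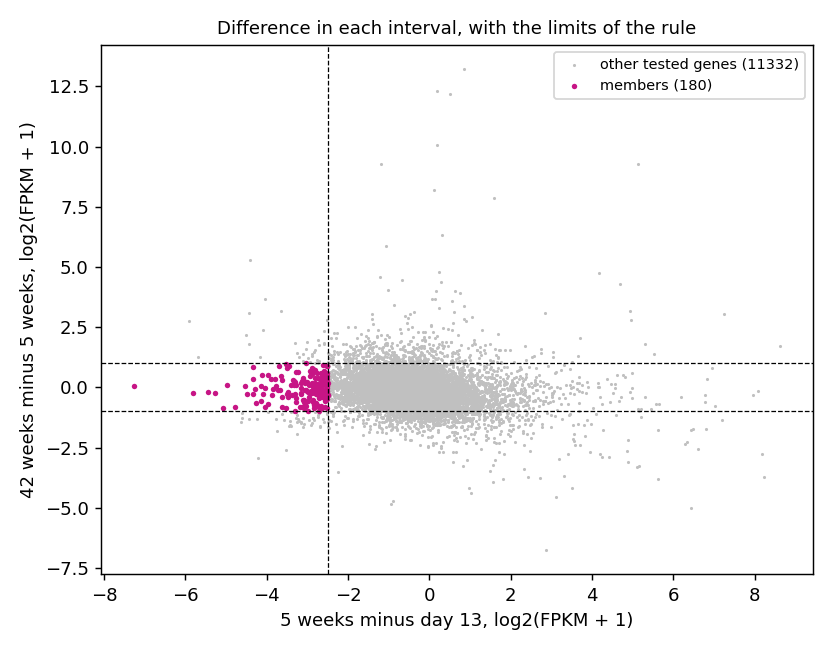
Difference from day 13 to 5 weeks (horizontal axis) and from 5 to 42 weeks (vertical axis) for 11512 genes, both in log2(FPKM + 1) units. Dashed lines mark the limits of the rule, at -2.5 and at 1 and -1. The 180 members crowd against the limit at -2.5, and a few reach below -5.

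All 180 members were called lower at 5 weeks than at day 13 by limma, with an adjusted p under 0.05 and a log2 difference of at least 1 in size. The same call was made for 24.3% of all genes in that direction, a share that was 11.0% with library medians made equal and 12.0% on quantile-normalized values. The largest adjusted p of a member was 0.0038 (limma). All 180 were also called lower at 42 weeks than at day 13, beside 30.9% of all genes, or 12.4% with equal medians and 13.7% on quantile-normalized values. In all 180, each of the 6 later libraries was below each of the 3 embryonic ones. That was so for 45.0% of all genes, while 55.2% had all 5-week libraries and 57.2% all 42-week libraries below the embryonic ones. The rule used these contrasts, so the counts describe the choice and nothing more is read from them. Both comparisons share the day 13 libraries.

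The drop was also read in libraries whose values did not enter the differences used to choose. When the rule was applied to 2 libraries per age, without those numbered 1, it chose 158 genes, and in the 3 libraries left out the drop to 5 weeks was 2.5 units or more in 130 of them (82.3%). Without those numbered 2 the rule chose 234 genes and the drop was that large in 116 (49.6%), and without those numbered 3 it chose 167 and the drop was that large in 119 (71.3%). Over all 11512 genes, 3.19%, 1.88% and 2.57% dropped by as much in the same left-out libraries. A drop of at least 1 unit was seen in 158 of 158, 232 of 234 and 165 of 167 chosen genes, where all genes gave 30.3%, 20.7% and 25.7%. A single chosen gene was higher at 5 weeks than at day 13 in the libraries left out. The filter on low values used all 9 libraries here. With a filter of 1 FPKM in at least 2 of the 6 libraries used to choose, an alternative added after seeing the data, the counts were again 130 of 158, 116 of 234 and 119 of 167, beside 3.16%, 1.86% and 2.55% of all genes. A drop of 2.5 units needs about 4.66 FPKM at day 13, so either filter could hardly change the choice. The equal counts were thus nearly fixed in advance, and nothing is read from them. The deposited table itself lists genes by their values in all 9 libraries.

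The median difference in the left-out libraries lay on either side of that in the libraries used to choose. It was -3.20 beside -2.88 for replicate 1, -2.49 beside -2.91 for replicate 2, and -2.88 beside -2.89 for replicate 3. The all-gene median in the same left-out libraries was -0.59, -0.30 and -0.47, so it too was nearest to 0 for replicate 2. The limit on the second interval was met by 79.7%, 75.6% and 83.2% of the chosen genes, which stayed within 1 unit from 5 to 42 weeks in the left-out libraries. That is near the 82.0%, 81.3% and 85.2% of all genes that did so. Both limits were met in the left-out libraries by 65.8%, 39.3% and 59.9% of the chosen genes, beside 2.22%, 1.19% and 1.95% of all genes. The 3 sets of left-out libraries overlap with each other's choosing sets, so the 3 readings are not independent.

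**Figure D4:**
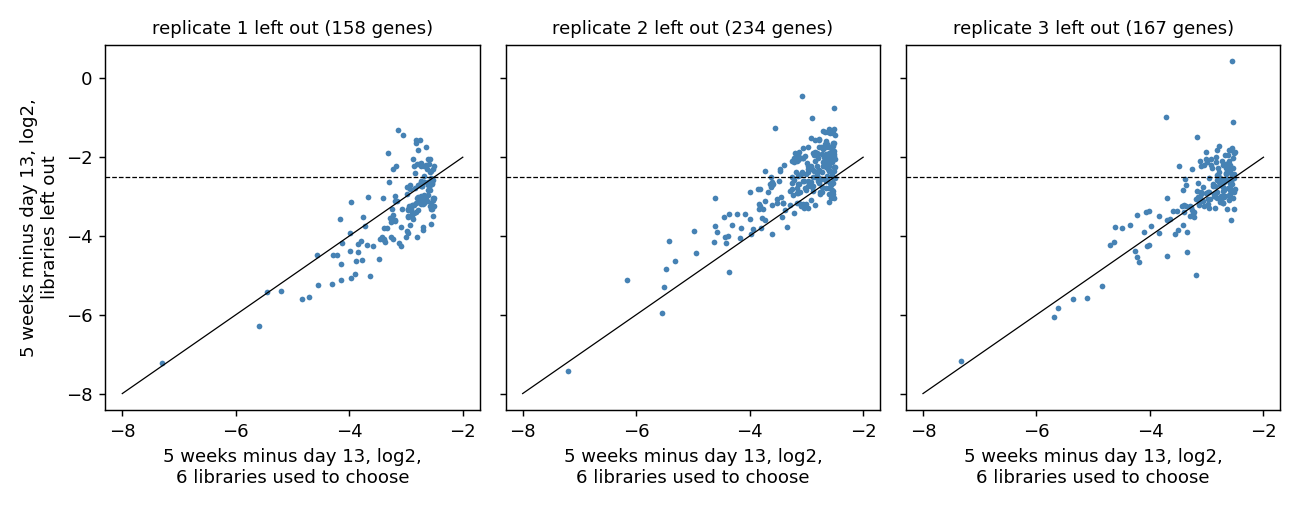
Log2 difference between 5 weeks and day 13 in the 6 libraries used to choose (horizontal axis) and in the 1 library per age left out (vertical axis), with 1 panel per replicate number. The solid line marks equal values and the dashed line the limit of -2.5. Points scatter around the solid line, with those in the panel for replicate 2 shifted toward 0.

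After hatching the levels of the members spread widely, as those of all genes did. The mean FPKM at 5 weeks had quartiles of 0.84 and 4.41 for members and of 2.10 and 15.2 for all genes. Of the 180, 31 (17.2%) were under 1 FPKM in all 6 libraries after hatching, 81 (45.0%) were at or above 1 FPKM in all 6, and 68 lay on both sides of that level. At least 10 FPKM was kept in all 6 later libraries by 14 members. The shares of all genes in these classes were not computed, so the counts describe the members alone. No member (0 of 180) was listed at 0 in all 6 later libraries, while 23 were listed at 0 in at least 1 of them. The table lists only genes above 0 in at least 5 libraries, so genes found in the embryo alone are not among those described. The count of 0 of 180 was thus fixed in advance, and nothing is read from it. Since 81 members stayed at or above 1 FPKM in all 6 later libraries, to call the whole group lost would go beyond the values. Nor can 2 ages after hatching show that the lower level is permanent.

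The level kept after hatching is given by classes of embryonic level, as a description. The 25 members under 10 FPKM at day 13 had a median of 0.350 FPKM at 5 weeks and 0.432 at 42 weeks, and 13 of them were under 1 FPKM in all 6 later libraries. The 79 members with 10 to 30 FPKM at day 13 had later medians of 1.23 and 1.12 FPKM, and the 51 with 30 to 100 FPKM had 3.49 and 3.15. The 22 members with 100 to 1000 FPKM kept medians of 14.9 and 16.5 FPKM, and 19 of them were at or above 1 FPKM in every later library. The 3 members above 1000 FPKM kept 189 and 190 FPKM as medians. The order of these classes was thus the same at all 3 ages. The rule sets no limit on how large a drop may be. It does cap the 5-week level of each member at 2.5 units below its day 13 level, which keeps the lower classes low. The order was thus favoured by the choice of members. Most members dropped by 2.5 to 3 units, and the later change was capped at 1. The order was not tested, and nothing is read from it. On this scale the offset of 1 FPKM also asks a larger linear ratio of low genes than of high ones. The median ratio of day 13 to 5 weeks was 19.9 in the lowest class and 6.35 in the highest.

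**Figure D5:**
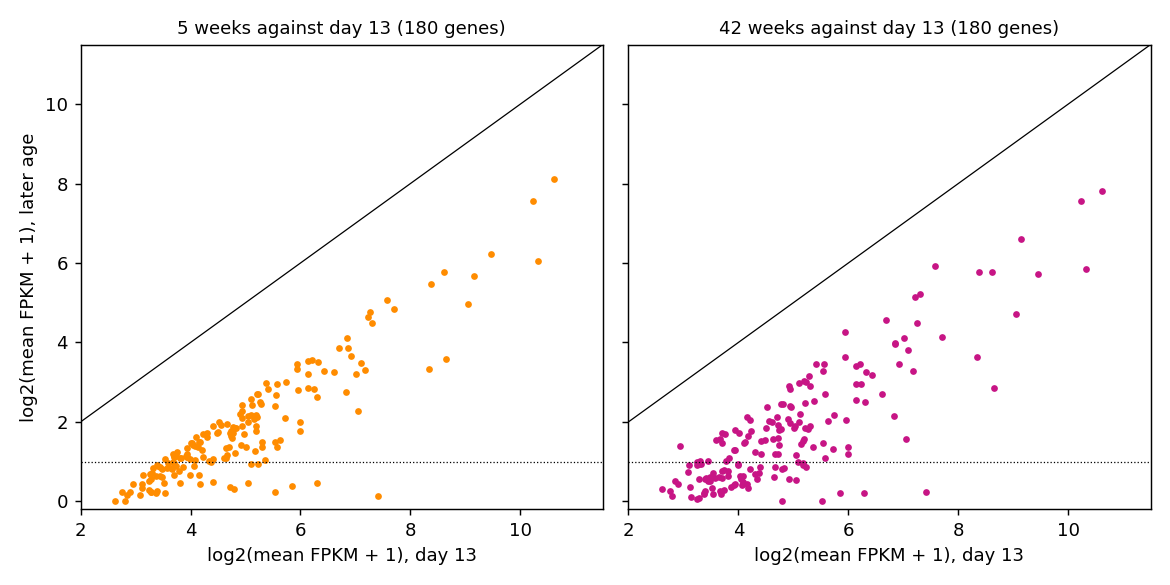
Mean level of the 180 members at 5 weeks (left) and 42 weeks (right) against that at day 13, as log2(mean FPKM + 1). The solid line marks equal levels and the dotted line 1 FPKM. All points lie below the solid line, as the rule sets. Later levels climb with the embryonic level, a pattern that the choice of members favours and that was not tested.

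Between 5 and 42 weeks the members moved in both directions within the allowed band. The difference had a median of -0.09 log2 units and quartiles of -0.38 and 0.31, beside a median of -0.17 over all genes. The sign of the members' median depended on scaling. It was 0.05 with library medians made equal and 0.02 on quantile-normalized values, beside -0.03 and -0.04 over all genes. On the deposited scale 101 members (56.1%) were lower at 42 weeks and 79 higher, where 61.9% of all genes were lower. This split was not counted on the other scales, so no drift of the members is read from it. In 129 members the 5-week and 42-week libraries overlapped. In 27 all 42-week libraries were below all 5-week ones and in 24 they were above, where all genes gave 27.9% and 13.5%. An adjusted p under 0.05 (limma) was reached by 30 members, 16 lower and 14 higher at 42 weeks, beside 32.1% of all genes in either direction, 21.9% lower and 10.3% higher. The cap on this difference limits how many members can reach it. The count of 30 rested on single libraries, being 55 without the third 42-week library, 13 without the second, 19 without the second 5-week library and 17 without the third. The shares of all genes without these libraries were not computed, so these changes are not read as particular to the members.

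The third 42-week library held higher values for the members than the others of its age. In it 26 members (14.4%) were at least 1 log2 unit from the mean of the other 2 libraries, 21 above and 5 below, beside 9.63% of all genes. The same distance was reached by 13 members in the first 42-week library (7.22%, beside 4.54% of all genes) and 6 in the second (3.33%, beside 2.21%). In the libraries of the other ages it was reached by 3 to 8 members. At day 13 these were 4.44%, 2.22% and 3.33% of members, beside 1.05%, 0.799% and 0.869% of all genes. At 5 weeks they were 1.67%, 2.22% and 1.67%, beside 1.55%, 1.88% and 1.52%. The 5-week shares were close to those of all genes and rested on 3 or 4 members per library. At day 13 the members' share was further above that of all genes, on 4 to 8 members. A higher share among members was thus not particular to the third 42-week library. Its median over all genes was also the highest of its age, at 6.25 FPKM. Without it the rule chose 164 genes, 159 of them among the 180. Its part in the spread of single members was not tested.

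The spread between libraries of an age was larger for the members than for the typical gene at day 13, by medians that were not tested. The median SD of the log2 values was 0.24 for members and 0.15 for all genes at day 13, 0.22 and 0.19 at 5 weeks, and 0.27 and 0.29 at 42 weeks. At 5 and 42 weeks the medians of the 2 sets were closer. A member's SD depends on its level on this scale.

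The 180 members were the largest class of the genes with such a drop. In all 259 genes dropped by at least 2.5 units by 5 weeks. Of these 46 (17.8%) dropped by at least another unit by 42 weeks and 33 (12.7%) rose again by at least 1 unit, which leaves 69.5% in the band. A gene with a mean under 1 FPKM at 5 weeks cannot lose another unit on this scale. The lower quartile of the members' 5-week mean was 0.84 FPKM, and the lowest such mean among those that kept dropping was 1.49 FPKM. The sizes of the classes and their levels at day 13 thus depend partly on this floor. Over all 11512 genes 88.1% stayed within 1 unit after 5 weeks. Before hatching the 3 classes overlapped in level, with medians at day 13 of 25.6 FPKM for the members, 55.0 for those that kept dropping and 43.3 for those that rose again. At 42 weeks, the median ratio of the day 13 level to the current one was 14.3 for members with a mean above 0, 50.6 for those that kept dropping and 3.01 for those that rose again. The classes were cut on these values, so their differences were not tested.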

How the data were processed

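RNA was measured in 9 liver libraries, 3 per age. The authors deposited log2 values of FPKM per gene, and these were read as log2(FPKM + 1), since back-transformed values are either 0 or at least 0.100. HISAT, StringTie 1.3.3, Cufflinks 2.2.1 and DESeq2 are named by the submitters' processing notes, with no role or order. The genome build is not given in the sources used here, nor is the annotation. All 9 columns belong to these libraries and 0 others were left aside. The lncRNA table was not used. No counts are given, so the depth, and with it counting error, is unknown.

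Genes reaching 1 FPKM in 3 or more libraries entered a linear model with 1 mean per age (limma 3.58.1, R 4.3.3), with a mean-variance trend. Two-sided p-values were adjusted by the Benjamini-Hochberg method over all 11512 genes, and calls needed an adjusted p under 0.05 and a log2 difference of at least 1. SEs pool the spread of all ages. The fit and the rule were tested on simulated data. Differences on this scale understate changes of low genes.

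The members, lists and tests were chosen with earlier results of these data known. Without symbols, the rule for named genes takes the member with the highest mean FPKM at day 13 and the member with the median drop. Alternatives were 2 other scalings, 2 other filters, an offset of 0.1 FPKM, other limits, the replicate number as a block, other fits, and leaving out each library.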

Additional observations from a re-analysis of the deposited data

How the results depend on the processing

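The number of genes meeting the rule depended on scaling and limits. It was 80 after median scaling (74 of them among the 180) and 84 after quantile normalization (80 shared), since these move the all-gene median of the first interval from -0.46 to 0.014 and -0.038. It was 405 with an offset of 0.1 FPKM (136 shared), 117 where 1 FPKM had to be reached in 6 or more libraries, 429 with a limit of -2, 75 with a limit of -3 and 119 with a band of 0.5. Leaving out each library gave 162 to 201. All 180 members were called lower at 5 and at 42 weeks than at day 13 under every alternative fit, also without any single library (180 to 180). Only 117 passed the stricter filter, all of them called. On the deposited scale 24.3% of all genes were called lower at 5 weeks and 30.9% at 42 weeks. The members were chosen for a large drop in these same libraries, so their calls were nearly fixed by the choice and are no separate support. The number with an adjusted p under 0.05 between 42 and 5 weeks (limma) was 48 after median scaling, 46 after quantile normalization and 13 to 55 when each library was left out. With the replicate block the calls at 5 weeks, the calls at 42 weeks and this number were 180, 180 and 28. On the deposited scale 32.1% of all genes had such a p between 42 and 5 weeks. That share was not computed under the alternatives, so the changes in the number are not read as particular to the members. Correlations of same-numbered deviations ran from -0.050 to 0.145. Libraries with different numbers were not compared, so these values do not settle whether the replicate numbers pair the libraries. The 2 named genes kept their calls against day 13 in 68 of 68 alternative values, with log2 differences from -3.06 to -1.49. Both are members, so these calls too were nearly fixed by the choice. ENSGALG00000010969 left the limit of -2.5 in 5 of its 17 values for 5 weeks. With no read depth given, genes near 0.1 FPKM cannot be ranked by precision.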
